A study of Mus musculus with 12 samples.

Results

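The genes for 7 receptors of the tumour necrosis factor (TNF) receptor superfamily and for 1 of their adaptors were followed across the open chromatin of mouse T cells. The cells were CD4 T cells of bone marrow and regulatory T cells induced in culture. The 8 genes were Tnfrsf18 (which encodes GITR), Tnfrsf4 (OX40), Tnfrsf9 (4-1BB), Tnfrsf1b (TNF receptor type 2), Tnfrsf8 (CD30), Tnfrsf25 (death receptor 3), Cd27 and Traf1, the adaptor. Open chromatin was measured by ATAC-seq, in which a transposase inserts sequencing adapters where DNA is accessible, and the measurement was a list of peaks per library. Overlapping peaks of the 12 lists (by 1 bp or more) were joined, which gave 76882 regions. A region was assigned to a gene when its midpoint lay in the gene body, or, outside gene bodies, when the gene had the nearest end within 50 kb. That rule gave the 8 genes 51 regions, of which 2 belonged to Tnfrsf18, 1 to Tnfrsf4, 8 to Tnfrsf9, 9 to Tnfrsf1b, 20 to Tnfrsf8, 1 to Tnfrsf25, 3 to Cd27 and 7 to Traf1.

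Ligand binding clusters these receptors, which recruit TNF receptor associated factors (TRAFs) and pass a costimulatory signal on to nuclear factor kappa B and other pathways. Regulatory T cells (Tregs), the Foxp3-expressing cells that restrain immune responses, are known for high levels of GITR, OX40 and TNF receptor type 2, and signals through several of these receptors support their survival and expansion. CD27 is found on most CD4 T cells, naive cells included, whereas OX40, 4-1BB and CD30 are better known from activated cells.

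All animals were of the Balb/c strain. CD4 T cells carrying the transgenic 6.5TCR, a receptor for influenza hemagglutinin (HA), were transferred into Aire-HA mice, named for that antigen and for Aire, a gene of the medullary thymic epithelium, and bone marrow cells were sorted 14 days later. Donor cells came as unconverted conventional cells (donor Tconv, CD25 negative) and as cells that had become regulatory (donor Treg, CD25 and LAP positive, LAP being the latent form of TGF-beta on the cell surface). Host conventional cells (host Tconv) were CD25 negative, and host regulatory cells were positive for CD25 and CTLA4, either without neuropilin-1 (host pTreg, peripherally derived by their label) or with it (host tTreg, thymus-derived by their label). The labels give host Tconv as single positive and both host regulatory groups as double positive for the 2 forms of CD45. The last group, iTreg, held regulatory cells induced in culture and sorted by CD25 and LAP. Each of the 6 groups had 2 libraries, no product of the 8 genes served in a sort, and the sources used here give neither age nor sex.

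The lists held 28394 to 63207 peaks per library, and their read depth was not known. Library names of the conventional and donor Treg groups carry the run code BW13 and those of the host regulatory groups DR31, while iTreg names carry none. Another number in those names was at most 17000 in the in vivo regulatory libraries and 42000 to 50000 in all others. Differences between groups that differ in the code or the number cannot be told apart from them. Host pTreg and host tTreg share the code and had like numbers, as did donor Tconv and host Tconv. The regions of 5 regulatory T cell markers (Foxp3, Il2ra, Ctla4, Ikzf2 and Lrrc32) covered 10.81 to 22.88 kb in conventional and 29.81 to 46.42 kb in regulatory libraries. Il2ra and Ctla4 encode sort markers. Of 4 T cell markers, Trac was not in the gene table, and the regions of the others covered 3.44 to 9.12 kb. Myeloid markers covered 4.85 to 7.66 kb in conventional, 2.18 to 3.71 kb in in vivo regulatory and 8.43 to 8.86 kb in iTreg libraries, and the 2 CD8 markers 1.65 to 2.57, 0 to 0.58 and 2.26 to 2.43 kb. In iTreg libraries the lists of 5 B cell (3.15 to 4.3 kb), 3 plasma cell (6.99 to 7.81 kb) and 4 erythroid markers (3.62 to 4.07 kb) covered more than in any other library, where they took 0.52 to 1.46, 2.99 to 5.46 and 1.03 to 2.1 kb. The 4 NK cell markers covered 2.74 to 7.46 kb, iTreg (6.39 to 7.46 kb) overlapping with both conventional groups and lying above the in vivo regulatory ones. The genes Csf1r (myeloid), Cd79a (B cell), Klra8 (NK cell) and Hbb-bs (erythroid) had no peak in any library. The part of these cells in the results below was not tested. A missing peak does not show closed chromatin, and in such bulk samples fewer open cells and less opening per cell cannot be told apart.

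Of the genes, 6 lie on chromosome 4 (mm10, coordinates counted from 1). Tnfrsf4 (chr4:156013595-156016613) and Tnfrsf18 (chr4:156026322-156028894) are 9708 bp apart, and Tnfrsf1b (chr4:145212368-145246870, minus strand) and Tnfrsf8 (chr4:145267132-145315164, minus strand) are 20261 bp apart. Tnfrsf9 (chr4:150920155-150946104) and Tnfrsf25 (chr4:152115528-152120119) stand apart from them. Cd27 lies at chr6:125232620-125237136 and Traf1 at chr2:34941750-34961812, both on the minus strand. Exons were not assigned here, so regions are placed by the distance of their midpoint from the gene's 5′ end.

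The peak lists, laid over promoter windows, show which members carried a peak right at their start. RefSeq promoter windows of 250 bases before a start (GRCm38.p6, a C57BL/6J reference for these Balb/c animals) were matched for all 8 genes and searched on both strands for TGANTCA (AP-1), TGTTTNC (forkhead), TTCNNNGAA (STAT), TGTGGTT (Runx), AGGAAGT (ETS), TGGAAAA (NFAT) and the kappa B motif. Among 32817 such windows of all genes, 6.75%, 17.8%, 7.01%, 4.39%, 7.69%, 5.92% and 3.33% held them, in that order. Capitals mark the matches below, and a match describes the letters only. The first of the 4 sequences is the second start of Tnfrsf9 (chr4:150927749-150927998, plus strand), which lay under a peak in all 12 libraries and held forkhead, STAT, kappa B and AP-1 matches in that order. The next is that of Tnfrsf8 (chr4:145315165-145315414, minus strand), under a peak in 11 libraries and with an AP-1 match. The last 2 had no peak in any library, namely Tnfrsf18 (chr4:156026072-156026321, plus strand) with a STAT match and Traf1 (chr2:34961773-34962022, minus strand) with an NFAT match.
Tnfrsf9 second start: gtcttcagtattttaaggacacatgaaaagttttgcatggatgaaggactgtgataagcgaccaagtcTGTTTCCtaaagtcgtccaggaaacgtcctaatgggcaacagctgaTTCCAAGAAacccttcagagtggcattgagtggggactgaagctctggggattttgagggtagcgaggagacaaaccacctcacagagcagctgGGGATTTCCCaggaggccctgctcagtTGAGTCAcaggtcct
Tnfrsf8: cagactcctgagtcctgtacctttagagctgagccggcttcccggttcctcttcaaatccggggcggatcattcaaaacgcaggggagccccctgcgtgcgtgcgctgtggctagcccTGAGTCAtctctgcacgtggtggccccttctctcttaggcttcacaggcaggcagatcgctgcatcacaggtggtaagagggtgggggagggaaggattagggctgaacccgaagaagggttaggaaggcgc
Tnfrsf18: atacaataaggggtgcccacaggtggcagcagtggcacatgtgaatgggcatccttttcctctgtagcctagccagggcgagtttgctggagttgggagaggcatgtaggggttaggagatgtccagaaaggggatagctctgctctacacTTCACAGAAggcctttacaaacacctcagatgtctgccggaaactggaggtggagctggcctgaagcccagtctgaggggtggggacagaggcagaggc
Traf1: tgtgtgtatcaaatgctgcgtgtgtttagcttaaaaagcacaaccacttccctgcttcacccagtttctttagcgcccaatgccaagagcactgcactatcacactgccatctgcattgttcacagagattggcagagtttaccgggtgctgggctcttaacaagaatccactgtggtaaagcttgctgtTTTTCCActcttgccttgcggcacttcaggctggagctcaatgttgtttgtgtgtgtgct

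The upstream-most start of Tnfrsf9 (chr4:150919905-150920154) also had no peak over it in any library and held none of the letters searched. The windows of Tnfrsf1b, Tnfrsf4, Cd27 and both starts of Tnfrsf25 lay under peaks in all 12 libraries. Those of Tnfrsf1b and of the downstream start of Tnfrsf25 held a STAT match, and the others held none of the letters searched. The peak nearest upstream of Tnfrsf18 was centred 3.86 kb before its 5′ end, and that of Traf1 1.44 kb before.

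The 51 regions were shared more widely than most. Of them, 28 (54.9%) had a peak in all 12 libraries, against 27.9% of all regions, and in 8 (15.7%) the replicates of at least 1 group differed, against 46.1% of all regions. Between 35 and 43 of the 51 carried a peak in any 1 library. Together they took 1363.5 to 1668.9 bp per Mb of the whole list in in vivo regulatory libraries. In conventional and iTreg libraries they took 921.6 to 1020.6 bp per Mb, so the ranges did not overlap. The map of region coverage shows these patterns gene by gene.

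**Figure D1:**
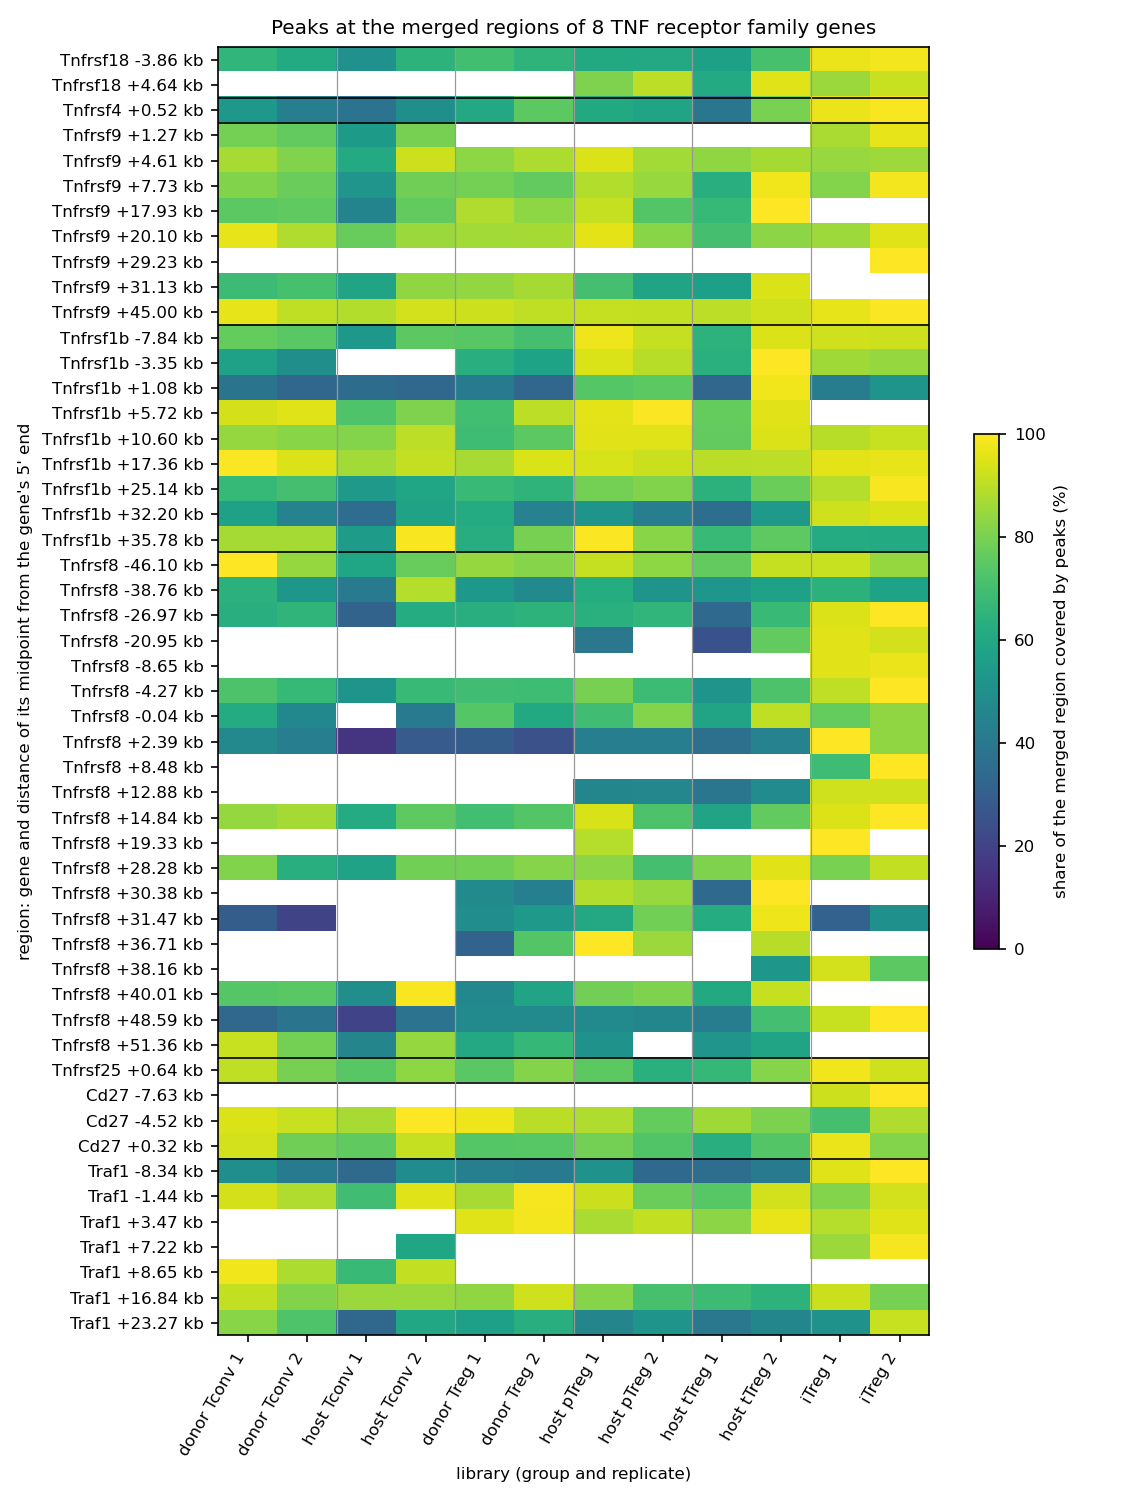
Share of each of the 51 merged regions (rows, by gene and distance of the midpoint from the gene's 5′ end in kb) covered by peaks in each of the 12 libraries (columns), in percent; white means no peak. The Traf1 region 3.47 kb inside the gene is filled in all 8 regulatory libraries and white in the 4 conventional ones, and the region at 8.65 kb shows the reverse.

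Which of the genes had wider open chromatin in regulatory than in conventional cells was asked by the covered width, the summed length of peaks in a gene's regions. Of the 8 genes, 5 had a greater width in the mean of the 4 regulatory groups than in that of the conventional ones, none a smaller one. They were Tnfrsf8, Tnfrsf18, Tnfrsf4, Traf1 and Tnfrsf1b, with log2 differences of 0.81, 0.75, 0.68, 0.48 and 0.38. Tnfrsf9, Tnfrsf25 and Cd27 did not pass the test. Widths were compared as log2(bp + 150) after subtracting each library's median over genes, with limma over 15548 genes and Benjamini-Hochberg adjustment at 0.05. Of all genes tested, 19.3% were higher and 16.8% lower in that comparison. The median difference was 0.43 over the 8 genes and 0.03 over all genes. Libraries were the replicates, and since nothing says that they came from separate animals, p-values measure a spread that may be technical.

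The subtraction matters to what can be said. Averaged over groups, medians were lower in regulatory than in conventional cells by 0.16 on the log2 scale (a shift of -0.157). Differences are relative to that shift, which the regulatory groups did not all share. Library medians were 10.195 to 10.644 in in vivo regulatory and 10.562 to 10.904 in conventional libraries. In iTreg they were higher than in any other library (11.099 and 11.214). Without the subtraction, Tnfrsf18 and Tnfrsf8 alone passed, and Tnfrsf9 (-0.027), Tnfrsf25 (-0.049) and Cd27 (-0.082) turned to the other sign. Without it 40.8% of all calls were higher, against 53.4% with it. Within the BW13 libraries, where donor Treg is the one regulatory group, Tnfrsf9 passed beside the same 5 genes. The share over all genes is not given for that fit, so the count describes the members only. Donor Treg also differs from the other BW13 libraries in the number in the library names.

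Tnfrsf18 encodes GITR, a costimulatory receptor long used as a Treg marker. Its regions covered 1890 and 1754 bp in donor Tconv, 1455 and 1852 in host Tconv, 2001 and 1863 in donor Treg, 2623 and 2713 in host pTreg, 2307 and 3075 in host tTreg and 3711 and 3827 in iTreg. Before centring the donor Treg values overlapped with conventional ones, and those of the other regulatory groups were all higher. On the centred scale host Tconv (0.08 ± 0.016, SD, n = 2) and donor Tconv (0.10 ± 0.001) were lowest, followed by donor Treg (0.51 ± 0.12), iTreg (0.78 ± 0.052), host pTreg (0.95 ± 0.22) and host tTreg (1.10 ± 0.046). Libraries of the last 3 overlapped with their neighbour in that order. The difference between regulatory and conventional groups was 0.75 ± 0.066 (SE, adjusted p = 3.85e-05). With genes of all types in the annotation both regions went to the non-coding RNA gene Gm16008, and neither lies inside the body of Tnfrsf18, so that under these 2 assignments Tnfrsf18 had no region and could not be tested.

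The 2 regions of Tnfrsf18 differed in their pattern. The one 3.86 kb upstream (chr4:156021028-156023900) lies between Tnfrsf4 and Tnfrsf18 and was open in every library, widest in iTreg (2784 and 2827 bp) against 1455 to 2038 bp elsewhere. The one 4.64 kb from the 5′ end (chr4:156030421-156031511), downstream of the gene, had no peak in any conventional or donor Treg library. It measured 879 and 984 bp in host pTreg, 669 and 1037 in host tTreg and 927 and 1000 in iTreg. Donor Treg thus lacked a peak that the other 3 regulatory groups had. Fisher's exact test over 8 regulatory and 4 conventional libraries gave p = 0.0606 for it, so it could not be called.

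Tnfrsf4, the gene of OX40, had a single region over its start (chr4:156013172-156015060), which touches the neighbouring gene Sdf4. It measured 1008 and 807 bp in donor Tconv, 717 and 941 in host Tconv, 1137 and 1413 in donor Treg, 1144 and 1105 in host pTreg, 744 and 1510 in host tTreg and 1836 and 1869 in iTreg. One host tTreg library fell among the conventional ones before centring, and the others lay above them. On the centred scale the conventional groups (-0.81 each) were below all 4 regulatory groups, whose libraries overlapped with one another between -0.39 and 0.17. The difference was 0.68 ± 0.11 (SE, adjusted p = 0.00115).

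Tnfrsf8, the gene of CD30, held the most regions and the largest difference of the 8 genes, 0.81 ± 0.089 (SE, adjusted p = 1.37e-04). Its covered width was 5475 and 5013 bp in donor Tconv, 2934 and 5005 in host Tconv, 5526 and 5693 in donor Treg, 7837 and 6765 in host pTreg, 5322 and 8726 in host tTreg and 9256 and 9180 in iTreg. Host Tconv replicate 1 was far below replicate 2, and its list was the shortest of the conventional ones. Centred means rose from host Tconv (1.23 ± 0.28, SD, n = 2) and donor Tconv (1.55 ± 0.016) to donor Treg (1.98 ± 0.02) and iTreg (2.04 ± 0.09), which overlapped, and to host pTreg (2.35 ± 0.038) and host tTreg (2.41 ± 0.26), which also overlapped.

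Of the 20 Tnfrsf8 regions, 8 were open in all libraries. A region 30.38 kb inside the gene (chr4:145284425-145285153) had peaks only in the in vivo regulatory libraries, of 348 and 314 bp in donor Treg, 644 and 617 in host pTreg and 250 and 729 in host tTreg. Another, 12.88 kb inside (chr4:145301828-145302747), was open in host pTreg (424 and 427 bp), host tTreg (361 and 444) and iTreg (853 and 852) but had no peak in donor Treg or conventional libraries. The regions 8.48 kb inside and 8.65 kb upstream, had peaks in both iTreg libraries alone. The region over the start was missing in host Tconv replicate 1 alone and measured 283 to 627 bp in the rest. The plot of peaks at 3 genes shows these differences.

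**Figure D2:**
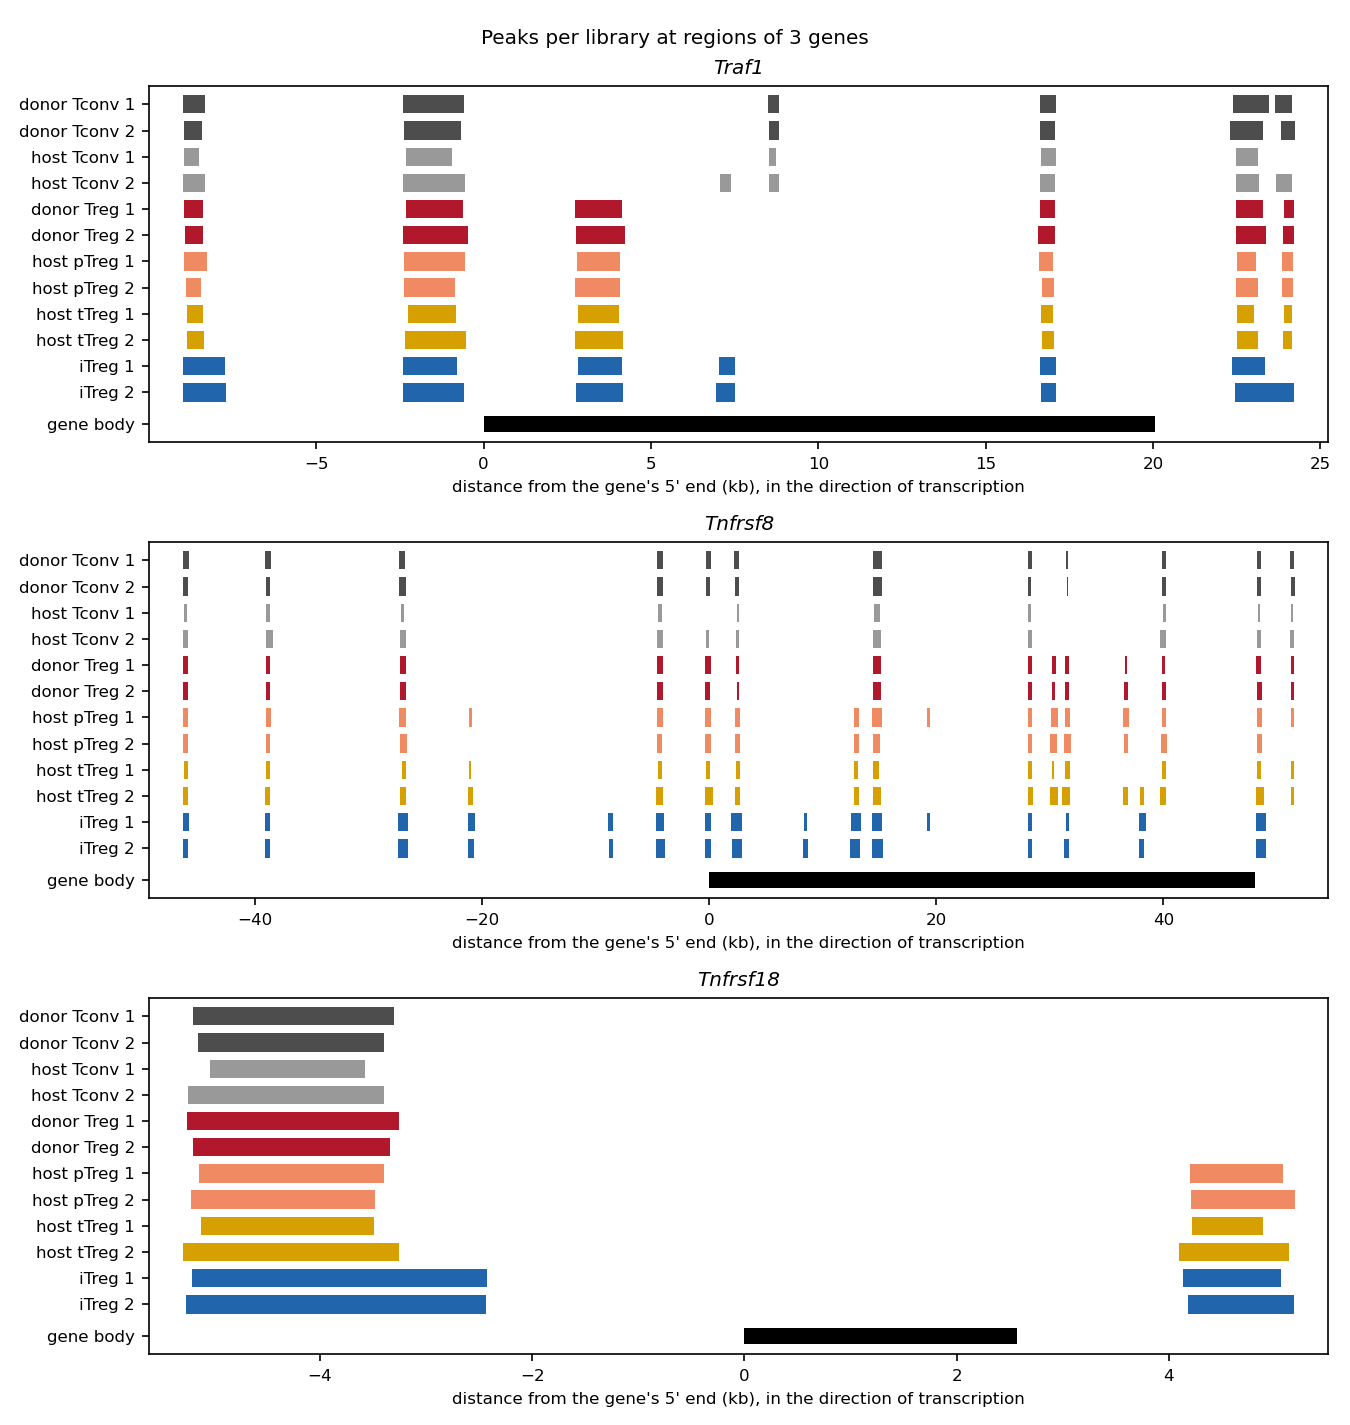
Peaks per library (rows, coloured by group) at the assigned regions of Traf1, Tnfrsf8 and Tnfrsf18, against the distance from the gene's 5′ end in kb; the black bar is the gene body. At Traf1 the peak at 3.47 kb is found in the 8 regulatory rows alone, at Tnfrsf18 the peak at 4.64 kb is absent from conventional and donor Treg rows, and at Tnfrsf8 the peak at 30.38 kb is found in the 6 in vivo regulatory rows.

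Tnfrsf1b encodes the TNF receptor that, unlike type 1, lacks a death domain. Its width was 8716 and 8345 bp in donor Tconv, 6529 and 7873 in host Tconv, 7930 and 8044 in donor Treg, 10892 and 10514 in host pTreg, 7582 and 11258 in host tTreg and 8573 and 9070 in iTreg. Before centring, host pTreg lay above all conventional libraries, and each of the other regulatory groups had at least 1 library within their range. The centred difference was 0.38 ± 0.066 (SE, adjusted p = 0.00176), with iTreg lowest of all groups (1.97 ± 0.025, SD, n = 2) and both host regulatory groups highest (2.84 ± 0.17 and 2.89 ± 0.15).

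The promoter region of Tnfrsf1b, centred 1.08 kb inside the gene (chr4:145244147-145247432), measured 1088 to 1261 bp in conventional libraries and 1355 and 1083 bp in donor Treg. It was 2425 and 2457 bp in host pTreg, 1083 and 3211 bp in host tTreg and 1386 and 1700 bp in iTreg. One host tTreg library was thus as narrow as the conventional ones and the other was the widest of all. Its difference of 0.73 ± 0.19 (SE, adjusted p = 0.0244) fell to 0.35 (adjusted p = 0.221) within the BW13 libraries. A region 3.35 kb upstream (chr4:145249740-145250697) had no peak in either host Tconv library and was 476 to 958 bp wide in the other 10. With genes of all types in the annotation, the upstream regions of Tnfrsf1b went to the non-coding RNA gene Gm36233.

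Tnfrsf9 encodes 4-1BB, a receptor induced on activation. Its width was 6145 and 5846 bp in donor Tconv, 4590 and 6146 in host Tconv, 5656 and 5622 in donor Treg, 5995 and 5457 in host pTreg, 4905 and 6114 in host tTreg and 5021 and 5644 in iTreg, so every regulatory library lay within the range of the conventional ones. The centred difference of 0.13 ± 0.049 (SE) gave an adjusted p of 0.0605. That value joined opposite positions, with iTreg lowest (1.26 ± 0.034, SD, n = 2), conventional groups between (1.68 ± 0.048 and 1.74 ± 0.022) and in vivo regulatory groups highest (1.99 ± 0.056 to 2.10 ± 0.013). Within the gene, the region 1.27 kb from the 5′ end (chr4:150921131-150921721) was open in conventional (321 to 469 bp) and iTreg libraries (515 and 568 bp) and had no peak in any in vivo regulatory library. Regions 17.93 and 31.13 kb from the 5′ end were open in every library but those of iTreg.

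Tnfrsf25 encodes a receptor with a death domain, and Cd27 a receptor for CD70. The single Tnfrsf25 region (chr4:152115486-152116860) covers its start, ranged from 873 bp in a host pTreg library to 1344 bp in an iTreg library, and lies within a gene-dense stretch where Plekhg5 lies 123 bp away. Cd27 width ranged from 1923 bp in a host tTreg library to 2928 bp in an iTreg library, and the gene Tapbpl lies 759 bp away. The differences were 0.11 ± 0.072 (adjusted p = 0.282) for Tnfrsf25, with a 95% interval of -0.054 to 0.269. For Cd27 the difference was 0.08 ± 0.066 (adjusted p = 0.412), with an interval of -0.072 to 0.222. A Cd27 region 7.63 kb upstream had peaks in both iTreg libraries alone, of 364 and 394 bp. With genes of all types in the annotation, the upstream regions of Cd27 went to the non-coding RNA gene E130112N10Rik.

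Traf1 encodes an adaptor that binds TRAF2 and the tails of several of these receptors. Its covered width was 4900 and 4408 bp in donor Tconv, 3155 and 4780 in host Tconv, 5225 and 5664 in donor Treg, 5081 and 4694 in host pTreg, 4303 and 5043 in host tTreg and 6140 and 7319 in iTreg. Host Treg values overlapped with conventional ones before centring, while donor Treg and iTreg lay above them. The centred difference was 0.48 ± 0.062 (SE, adjusted p = 3.15e-04), and donor Treg had the highest centred mean (1.94 ± 0.03, SD, n = 2).

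Peaks at 2 separate Traf1 regions had opposite patterns in conventional and regulatory libraries. The first, 3.47 kb inside the gene (chr2:34957597-34959079), had a peak in 8 of 8 regulatory and 0 of 4 conventional libraries. It measured 1411 and 1458 bp in donor Treg, 1292 and 1346 in host pTreg, 1228 and 1435 in host tTreg and 1318 and 1408 in iTreg. The second, 8.65 kb inside (chr2:34952988-34953325), had a peak in 0 of 8 regulatory and 4 of 4 conventional libraries, of 331 and 297 bp in donor Tconv and 228 and 307 bp in host Tconv. The first was thus several times as wide as the second. With genes of all types in the annotation, both also lay in the non-coding RNA gene Gm52552. The regions upstream of Traf1 then went to non-coding RNA genes alone. These were the 2 member regions called by Fisher's exact test (two-sided, Benjamini-Hochberg adjustment over 18887 regions; unadjusted p = 0.00202, the smallest that 8 against 4 can give, and adjusted p = 0.0317). Of all regions tested, 1.39% were called as present and 4.98% as absent in regulatory libraries. Among the member regions, only some of Tnfrsf8 and Traf1 could be tested, the peak numbers of the others not allowing an unadjusted p under 0.05. By pattern, 1 member region (1.96%) had peaks in both libraries of the 4 regulatory groups alone, against 0.342% of all regions. Another 1 (1.96%) had them in the conventional groups alone, against 1.22%, which is close to that share. The adjusted p rests on the full number of libraries: leaving out 1 library left both calls in place for 3 of the 12 and neither for the other 9.

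Where a region had a peak in every library, its width itself could be compared. In the 28 such regions of the 8 genes, 14 were wider in the mean of the regulatory groups and none narrower (limma, adjusted p under 0.05). Among 21435 regions 7.56% were wider and 8.38% narrower. The 4 with the largest differences were Tnfrsf8 at 48.59 kb (1.05 ± 0.13, SE), just past the end of the gene, Tnfrsf4 at 0.52 kb (0.75 ± 0.12), Tnfrsf8 at 2.39 kb (0.73 ± 0.13) and Tnfrsf1b at 1.08 kb (0.73 ± 0.19). At 48.59 kb, Tnfrsf8 measured 189 to 359 bp in conventional, 397 to 658 bp in in vivo regulatory and 857 and 937 bp in iTreg libraries, with no overlap between them. The 14 comprised 5 regions of Tnfrsf8, 4 of Tnfrsf1b, 2 of Tnfrsf9 and 1 each of Tnfrsf18, Tnfrsf4 and Traf1. No call came from Tnfrsf25 or Cd27. Traf1 8.34 kb upstream averaged 1270.5 bp in iTreg, 503 to 554 bp in in vivo regulatory and 543 and 591 bp in conventional groups. Tnfrsf1b at 32.2 kb and Tnfrsf8 26.97 kb upstream were also widest in iTreg (690.5 and 855.5 bp on average). These regions were called in neither the donor nor the host comparison below. For Tnfrsf8 at 2.39 kb the donor value had the other sign (-0.43 ± 0.21, SE). Without centring 2 of the 14 passed and none changed sign. Within the BW13 libraries 6 member regions passed, a count for which the share over all regions is not given.

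**Figure D3:**
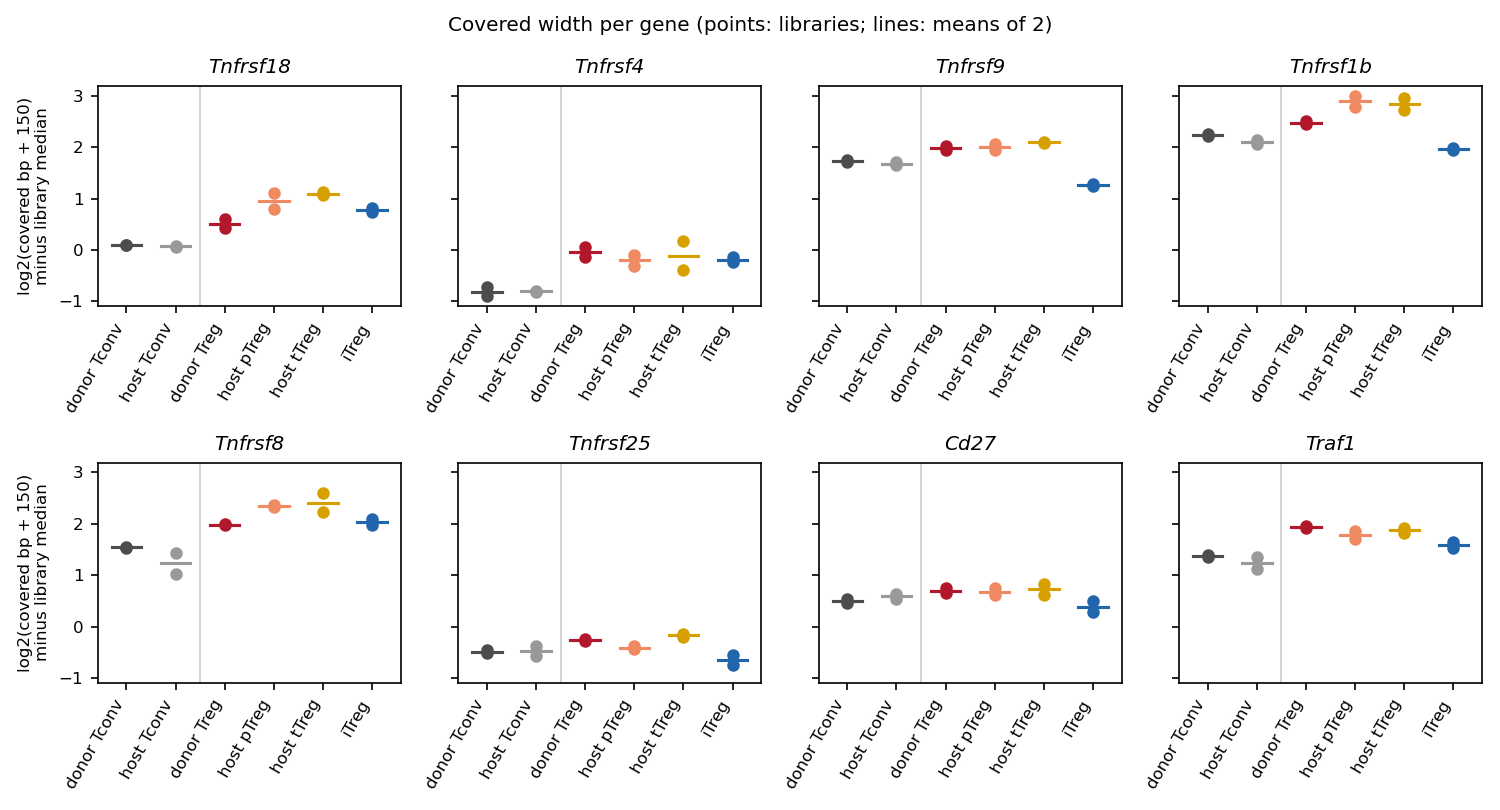
Covered width per gene on the log2(bp + 150) scale minus the library median, for each library (points) and as means of 2 (lines), in the 2 conventional and 4 regulatory groups, which a grey line separates. For Tnfrsf18, Tnfrsf4, Tnfrsf8 and Traf1 every regulatory point lies above every conventional one, whereas for Tnfrsf9 and Tnfrsf1b the iTreg points are lowest.

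The comparison of donor Treg with donor Tconv asks what differs between transferred cells that did and did not become regulatory. Both groups carry the same run code but differ in the number in the library names. Traf1 (0.56 ± 0.10, SE, adjusted p = 0.00517), Tnfrsf4 (0.77 ± 0.18, adjusted p = 0.0181) and Tnfrsf18 (0.42 ± 0.11, adjusted p = 0.0282) were wider in donor Treg, 3 of 8 against 3.05% of all genes higher, and none of the 8 was narrower against 11.6%. Tnfrsf8 (0.44 ± 0.15, adjusted p = 0.0739), Tnfrsf9 (0.26 ± 0.079, adjusted p = 0.0596) and Tnfrsf1b (0.25 ± 0.11, adjusted p = 0.162) did not pass. Leaving out donor Tconv replicate 1, donor Tconv replicate 2 or donor Treg replicate 2 left Traf1 alone, and lists cut to equal length did the same. Without centring none passed, the median shift being -0.34, and 3.72% of all calls were higher in place of 20.8%. With lists of equal length 35.9% were higher.

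By presence, 3 of the 41 member regions with a peak in these libraries were found in both donor Treg and neither donor Tconv library, against 2.41% of all regions. They were Traf1 at 3.47 kb and Tnfrsf8 at 30.38 and 36.71 kb. Another 2, Traf1 at 8.65 kb and Tnfrsf9 at 1.27 kb, showed the reverse, against 19.9% of all regions. No test was made, since 2 libraries against 2 cannot reach the threshold. None of the 28 shared member regions was called by width in limma, 7 having an unadjusted p under 0.05, and 3.29% of all regions were called.

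The host groups were compared as the mean of pTreg and tTreg against host Tconv. The sides differ in run code, in the number in the library names and, by label, in their CD45 forms. None of these can be told apart from regulatory identity. Of the 8 genes, 6 were wider in host regulatory cells against 9.94% of all genes, and none was narrower against 13.6%. Tnfrsf8 (1.15 ± 0.13, SE, adjusted p = 1.76e-04) and Tnfrsf18 (0.95 ± 0.093, adjusted p = 9.72e-05) were highest, followed by Tnfrsf1b (0.76 ± 0.094), Tnfrsf4 (0.66 ± 0.16), Traf1 (0.58 ± 0.087) and Tnfrsf9 (0.37 ± 0.069, adjusted p = 0.00342). Tnfrsf25 (0.18 ± 0.10) and Cd27 (0.11 ± 0.093) did not pass. Without centring Tnfrsf18 alone passed, with a median shift of -0.297, and 12.7% of all calls were higher in place of 42.3%. Leaving out either host Tconv library ended the call of Tnfrsf4.

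By presence, 6 of 47 member regions were found in all 4 host regulatory libraries and neither host Tconv library, against 3.04% of all regions. They were Traf1 at 3.47 kb, Tnfrsf18 at 4.64 kb, Tnfrsf1b 3.35 kb upstream and Tnfrsf8 at 12.88, 30.38 and 31.47 kb. The reverse was seen for Traf1 at 8.65 kb and Tnfrsf9 at 1.27 kb, against 10.2% of all regions. Those 2 and 2 of the 6 are regions named for the donor cells above. By width, 14 of the 28 shared regions were wider in host regulatory cells and none narrower, against 7.64% and 7.05% of all regions. Tnfrsf8 at 2.39 kb (chr4:145312294-145313259) led with 1.23 ± 0.18 (SE, adjusted p = 0.0013), its widths being 150 and 276 bp in host Tconv against 414 and 412 in host pTreg and 357 and 430 in host tTreg. In donor cells the same region went the other way in its values, 455 and 412 bp in donor Tconv against 285 and 241 in donor Treg (-0.43 ± 0.21, adjusted p = 0.309).

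The difference between those donor and host effects was tested in the same fit as a comparison added after the data were seen. None of the 8 genes was called by limma, 3 having an unadjusted p under 0.05, and 1.31% of all genes were called. Those 3 were Tnfrsf8 (-0.71 ± 0.19, SE, adjusted p = 0.13), Tnfrsf18 (-0.53 ± 0.14, adjusted p = 0.13) and Tnfrsf1b (-0.51 ± 0.14, adjusted p = 0.144), in each of which the host effect was the larger. Tnfrsf8 at 2.39 kb was the 1 region called of 28, against 0.257% of all regions. Presence in donor Treg and in all 4 host regulatory libraries was compared directly, also as an addition after the data were seen. No member region was found in donor Treg alone, against 1.12% of all regions, and 2 were found in the host cells alone, against 0.815%. These were Tnfrsf18 at 4.64 kb and Tnfrsf8 at 12.88 kb. Between the conventional groups, Tnfrsf1b 3.35 kb upstream and Tnfrsf8 at 31.47 kb were found in donor Tconv alone, 2 of 39 against 4.4% of all regions, and none in host Tconv alone against 0.557%.

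Induced Tregs made in culture were compared with the mean of the 3 in vivo regulatory groups, a difference in which culture and run cannot be told apart. Relative to the library median, 5 of the 8 genes were narrower in iTreg against 23.4% of all genes, and none was wider against 34.6%. The differences were -0.77 ± 0.065 (SE, adjusted p = 1.14e-05) for Tnfrsf9 and -0.76 ± 0.088 (adjusted p = 8.04e-05) for Tnfrsf1b. Those of Tnfrsf25 (-0.37 ± 0.097), Cd27 (-0.31 ± 0.088) and Traf1 (-0.28 ± 0.082) were smaller. Tnfrsf18 (-0.07 ± 0.088), Tnfrsf4 (-0.07 ± 0.15) and Tnfrsf8 (-0.21 ± 0.12) did not pass.

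This comparison depends most on the scale. The median shift was 0.70, and without centring Tnfrsf25 (0.33), Cd27 (0.38) and Traf1 (0.42) were called wider in iTreg, as were Tnfrsf18 and Tnfrsf4. Tnfrsf9 (-0.074, adjusted p = 0.615) and Tnfrsf1b (-0.067, adjusted p = 0.704) then did not pass. Of all calls, 98.9% were then higher in place of 59.6%. With lists of equal length Tnfrsf9, Tnfrsf1b and Cd27 remained called as narrower, and without iTreg replicate 2 Tnfrsf9, Tnfrsf1b and Traf1 did. Without iTreg replicate 1 Traf1 lost its call, as it did with a pseudocount of 500 bp (-0.19, adjusted p = 0.0762), peaks of at least 300 bp (-0.19, adjusted p = 0.131), gene bodies alone (-0.21, adjusted p = 0.0876) and genes of all types (-0.215, adjusted p = 0.127).

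Presence does not use the centring, though it moves with list length. Of 50 member regions, 5 were found in both iTreg and none of the 6 in vivo regulatory libraries, against 27.9% of all regions, and 5 showed the reverse, against 1.68%. The first 5 were Traf1 at 7.22 kb, Tnfrsf8 at 8.48 kb and 8.65 kb upstream, Tnfrsf9 at 1.27 kb and Cd27 7.63 kb upstream. The 5 missing in iTreg were Tnfrsf1b at 5.72 kb, Tnfrsf8 at 30.38 and 40.01 kb and Tnfrsf9 at 17.93 and 31.13 kb. Of these, all but Tnfrsf8 at 30.38 kb were also open in both conventional groups. The Tnfrsf1b region at 5.72 kb (chr4:145240640-145241663), for example, was 714 to 1018 bp wide in all 10 libraries other than iTreg.

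Width in the 28 shared regions went both ways in iTreg. There 4 were wider, against 13.2% of all regions, namely Tnfrsf8 at 2.39 kb (0.87 ± 0.17, SE) and 48.59 kb (0.49 ± 0.17), Traf1 8.34 kb upstream (0.79 ± 0.12) and Tnfrsf1b at 32.2 kb (0.51 ± 0.16). Traf1 8.34 kb upstream (chr2:34969501-34970803) measured 1238 and 1303 bp in iTreg and 443 to 664 bp in every other library. In turn 10 were narrower, against 17.2%, led by Tnfrsf1b at 35.78 kb (-0.79 ± 0.13) and Cd27 4.52 kb upstream (-0.59 ± 0.14). Without centring 7 of these 14 called regions changed sign, all of them among the 10.

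Host pTreg and host tTreg were compared to ask whether the genes differ between peripherally and thymically derived cells, which share a run code. None of the 8 genes was called by limma and none had an unadjusted p under 0.05, where 0.534% of all genes were called. The 95% intervals lay within -0.503 and 0.311, the widest being that of Tnfrsf4 (-0.09, from -0.489 to 0.311). For Tnfrsf18 the interval was -0.393 to 0.088 and for Tnfrsf8 -0.385 to 0.262, and differences inside these bounds were not excluded. Of 44 member regions none was found in both libraries of 1 of these groups and neither of the other, against 3.35% of all regions for host pTreg and 0.452% for host tTreg. None of the 28 shared regions was called by width, 2 having an unadjusted p under 0.05, and 0.173% of all regions were called.

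**Figure D4:**
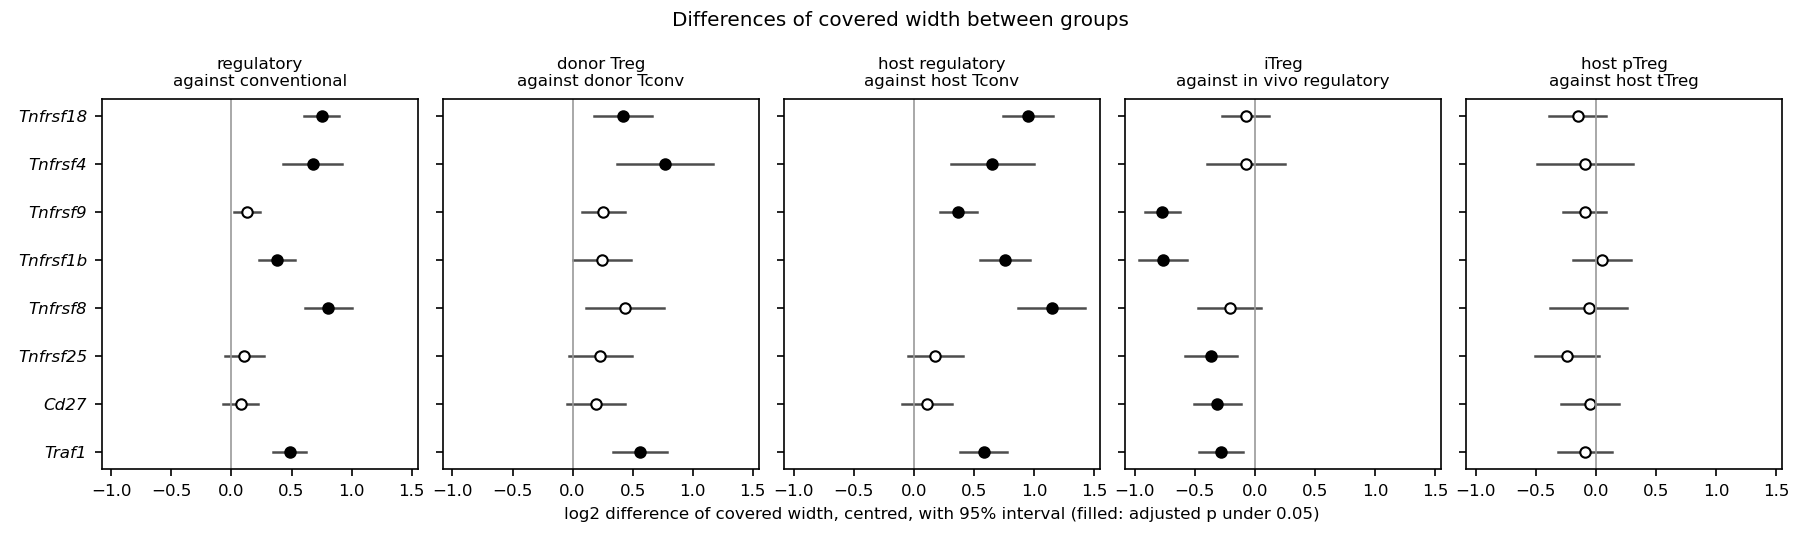
Log2 differences of covered width after centring for the 8 genes in 5 comparisons, with 95% intervals; filled points have an adjusted p under 0.05. Regulatory against conventional, donor and host panels share libraries, and the points of Tnfrsf18, Tnfrsf4 and Traf1 are filled in all 3, while no point is filled for host pTreg against host tTreg.

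These comparisons share libraries, the first with the donor and the host one in full, so they are not independent. Side by side, Traf1 had 0.48, 0.56 and 0.58 in the joint, donor and host comparisons, Tnfrsf4 0.68, 0.77 and 0.66, and Tnfrsf18 0.75, 0.42 and 0.95. For Tnfrsf8 the values were 0.81, 0.44 and 1.15, and for Tnfrsf1b 0.38, 0.25 and 0.76.

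Other genes of the pathway, taken by role from a list, did not move as one group. Of 17 further receptors 15 could be tested. Ngfr had peaks in iTreg alone (1398 bp on average), entered the test through that group and is left out of the count. Of the other 14, 1 was wider and 5 narrower in regulatory groups, against 19.3% wider and 16.8% narrower of all genes, with a median of -0.09 against 0.03. Cd40 covered 613.5 and 196.5 bp on average in donor and host Tconv, 389, 591.5 and 964 bp in donor Treg, host pTreg and host tTreg and 2959 bp in iTreg. Narrower were Tnfrsf1a (-0.46 ± 0.059, SE), the death domain receptor for TNF, Tnfrsf19, Tnfrsf21, Ltbr and Edar. Ltbr, the lymphotoxin beta receptor, covered 637.5 and 589 bp on average in donor and host Tconv, 326 bp in iTreg, and had no peak in the in vivo regulatory groups. For Edar, Tnfrsf21 and Tnfrsf19 the iTreg mean was the highest of all groups (4727, 993 and 6177 bp).

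Of 17 ligands 16 could be tested. Tnfsf12, with peaks in iTreg alone (502 bp on average), and Tnfsf13b, which encodes the B cell factor BAFF and had none in conventional or donor Treg libraries, entered the test through regulatory groups alone and are left out of the count. Of the other 14, 2 were wider and 4 narrower, against the same 19.3% and 16.8%, with a median of -0.05. Tnfsf10, the gene of TRAIL, was wider (0.83 ± 0.079, SE), as was Tnfsf11, which encodes RANKL. Cd40lg was narrower (-0.95 ± 0.10), with means of 7598.5 and 5815 bp in donor and host Tconv against 2156.5 to 4013.5 bp in regulatory groups. Fasl (-0.41 ± 0.048), Tnfsf8, which encodes the CD30 ligand, and Tnfsf18, which encodes the GITR ligand, were narrower too. The iTreg means of Tnfsf8 (10105.5 bp) and Tnfsf18 (362 bp) were however the highest of their gene. Of 15 adaptors and downstream genes, none was wider and Map3k14, the kinase of the non-canonical kappa B pathway, was narrower (-0.66 ± 0.15). No direction of the genes named here changed without centring, although Tnfsf8 and Tnfsf11 then did not pass. With lists of equal length Tnfrsf21 did not pass and Tnfsf12 and Tnfsf18 could not be tested.

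The genes most like each member over the 12 libraries were looked for among genes with at least 3 regions and a spread at or above the median. The highest correlations of centred width were those of Zbtb46 with Tnfrsf18 (Pearson r = 0.958), Armcx4 with Tnfrsf4 (0.975), Amd1 with Tnfrsf9 (0.995), Nup153 with Tnfrsf1b (0.98) and Ky with Tnfrsf8 (0.98). For Traf1 it was Swap70 (0.967), and Eif4enif1 was first for both Tnfrsf25 (0.91) and Cd27 (0.934). Pdcd1, the gene of the inhibitory receptor PD-1, was the third for Tnfrsf1b (0.973), and Itgb8, an integrin subunit, the third for Traf1 (0.956). The points share their libraries and groups, 4653 to 4662 candidates were searched per member, and these values describe likeness only.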

How the data were processed

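ATAC-seq peak lists of 12 mouse libraries (6 groups of 2) were analysed. The tools were Bowtie2 2.3.3, HOMER 4.10 and bedtools and the build mm10, per the submitters' processing notes. The sources used here do not give their roles, the read filters or any shift of read ends. By their names the deposited lists come from an intersection, of which nothing more is stated. The score the authors deposited is 1000 for every peak and was not used. The measurement was the deposited start and end of each peak, 496365 in all and none under 150 bp. Read depth is unknown, so no counting error can be given, and 2 libraries a group limit the precision.

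Groups came from the sample titles. The members and gene lists were chosen with earlier results of these data known. Regions were merged and assigned as the report says, with RefSeq gene bodies of GRCm38.p6, whose coordinates are those of mm10. Covered width per gene (15548 genes with a peak in at least 2 libraries) and width per region (21435 regions with a peak in all 12) were fitted with limma 3.58.1 (R 4.3.3, trended eBayes) on the log2 scale. The 6 groups shared 1 estimate of the spread. On simulated data 176 of 200 genes shifted by 1 on the log2 scale were called. The members' differences between regulatory and conventional groups were smaller (0.075 to 0.806). That count therefore does not give the share of such differences that would be called. Presence was tested with Fisher's exact test (scipy 1.17.1) for 8 against 4 libraries and counted for smaller groups. All 8 members are named, with the other pathway genes that were called and the 3 genes most like each member, from which the closest are printed. Alternatives covered the pseudocount (50 and 500 bp), centring, filter, list length (the 28394 widest peaks of each library), peak width (300 bp), merging (100 bp), cover (25%), assignment, run code, replicate block and leaving out each library.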

Additional observations from a re-analysis of the deposited data

Results flagged for a closer look

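The Tnfrsf8 region 2.39 kb inside the gene differed between donor and host cells in the direction of its change with regulatory identity. The donor change by itself was not called (-0.429 ± 0.206, SE; limma, adjusted p = 0.309), whereas the host change was (1.229 ± 0.179, adjusted p = 0.0013). The donor difference minus the host difference in log2 width was -1.658 ± 0.273 (SE; limma, adjusted p = 0.0372 over 21435 regions), a comparison added after the data were seen. Both donor Treg libraries were narrower than both donor Tconv libraries, and all 4 host regulatory libraries were wider than both host Tconv libraries. Leaving out 1 library kept the sign in every case, with values from -1.909 to -1.4, but ended the call for 9 of 12 libraries. It also ended without centring (-1.708, adjusted p = 0.457) and with the replicate block (adjusted p = 0.0607). Host Tconv replicate 1 had a peak of 150 bp there, the smallest width in any list, and without it the value was -1.4 (adjusted p = 0.095). Host regulatory libraries carry another run code than the other groups in this comparison. By label they also differ from host Tconv in their CD45 forms, and the part of neither was tested.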

How the results depend on the processing

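Lists give no read depth, so a missing or narrow peak may reflect how deeply a library was read, which was not tested. Without centring, called genes numbered 2 for regulatory against conventional groups, 0 for the donor and 1 for the host comparison, and called regions 2; Tnfrsf9 (-0.027), Tnfrsf25 (-0.049) and Cd27 (-0.082) reversed in the first comparison and Tnfrsf25 (0.33), Cd27 (0.382) and Traf1 (0.417) in that of iTreg. The cause was not tested.

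With lists of equal length, 1 gene was called in the donor and 3 in the iTreg comparison, and 9 regions by width. Regions found on 1 side alone then numbered 5 for donor Treg and 1 for donor Tconv, 10 for host Treg and 1 for host Tconv, 2 for iTreg and 2 for host tTreg. Shares over all regions are not given for such counts here and below, and those of the main setting come from lists of unequal length. The counts therefore show only how the member numbers move. With regions in gene bodies alone (29 of the 51), 8 were called by width, 3 were found in iTreg alone, 1 in donor Tconv against host Tconv and 1 in host against donor Treg, fewer regions entering the count. Within run code BW13 6 regions were called by width. With peaks of at least 300 bp, 1 region was called by Fisher's exact test, 1 was found in host Tconv alone and 3 in in vivo regulatory libraries alone. With all RefSeq genes, and with gene bodies alone, Tnfrsf18 had no region and could not be tested, and 4, 2 and 5 genes were called in the regulatory, donor and host comparisons. At 25% cover, and with all RefSeq genes, 1 was found in donor Tconv against host Tconv, and with all RefSeq genes 1 in host against donor Treg.

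Leaving out 1 library gave 5 to 6 genes for regulatory against conventional groups, 1 to 4 for the donor, 5 to 6 for the host, 3 to 6 for the iTreg and 0 for the pTreg against tTreg comparison. It gave 8 to 14 regions by width, the lowest without donor Tconv replicate 2, and 0 to 2 by Fisher's exact test. One-sided regions numbered 0 to 1 for host pTreg, 0 to 2 for host tTreg and 0 to 1 for host Tconv against donor Tconv. A group reduced to 1 library was assumed to vary like the others.

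With the replicate number as a block, 5, 3, 6, 5 and 0 genes were called in the 5 comparisons and 13 regions by width, Tnfrsf1b at 32.2 kb (adjusted p = 0.0569) losing its call, as did the donor against host difference of Tnfrsf8 at 2.39 kb. Equal numbers did not pair the samples (correlation of deviations from -0.241 to 0.158), and crossing the host tTreg numbers also gave 0. Fisher's test within BW13 was not run, since 2 against 4 cannot reach the threshold.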
